A study of Mus musculus with 6 samples.

Results

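The genes described here are 34 genes of microglia, the resident macrophages of the brain, measured in bulk RNA of mouse cerebellum. They were chosen by symbol, as homeostatic, complement and activation genes of these cells. All 34 were found among the 24411 genes of the count tables, and 33 of them were among the 15519 genes that passed the filter on low counts. The cerebellum came from 3 replicates without the remote enhancer of Atoh7 (KO) and 3 wild-type replicates (WT), all at postnatal day 18. Atoh7 encodes a transcription factor that retinal ganglion cells need to form, and the deleted element is a regulatory sequence at a distance from it. The replicates are described as independent in the labels, which give neither strain nor sex, and whether they came from separate animals is not stated in so many words, so p-values measure the spread between these libraries.

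Microglia enter the brain in the embryo, divide there and depend on signals through the receptor encoded by Csf1r. In their resting, or homeostatic, state they carry a set of surface receptors that sense neurons and purines, and they tag and clear synapses and dying cells with the help of complement C1q. On damage or during clearance of debris, microglia lower parts of the homeostatic set and switch on genes such as Cst7 and Itgax, a programme that runs through the receptor TREM2 and its adaptor.

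Atoh7 itself, which checks the labels only through its enhancer, averaged 1.58 ± 0.559 CPM in KO and 1.64 ± 0.510 CPM in WT (SD, n = 3 each), and its log2 fold change of −0.18 (95% interval −0.80 to 0.44) did not pass. The tissue entry of the labels reads retina, while the study design names cerebellum. The name of the deposited file of KO replicate 3 gives the allele by another code than those of the other KO libraries, and its title, which puts it in the KO group, was followed. Per kilobase of transcript, Pvalb, Car8 and Calb1, from a list of genes of cerebellar neurons, averaged 364, 166 and 136 CPM in KO and 332, 201 and 106 CPM in WT libraries. Gabra6 and Cbln3 of the same list averaged 73.3 and 57.3 CPM in KO and 116 and 67.1 CPM in WT. The retinal genes Prox1 (also used by brain neurons), Rcvrn and Sag averaged 3.98, 0.0896 and 0.164 CPM in KO and 4.54, 0.626 and 0.227 CPM in WT. Rcvrn, with 6, 3 and 2 reads in KO and 15, 14 and 7 reads in WT, was lower in KO (log2 −2.42, SE 0.54; adjusted p = 0.0145 in edgeR). DESeq2 called 0 of the 4 tested retinal genes and gave no adjusted p for 2 of them, while limma-voom called 1 lower. The photoreceptor gene Crx was at 0 reads in every library. CPM are read counts scaled to library size (counts per 1000000 reads). Gene reads other than the ribosomal RNA precursor Rn45s numbered 32139351 to 33940607 in KO and 6015125 to 27315398 in WT libraries. WT replicate 3, the shallowest, had 63.2% of its gene reads on Rn45s, against 1.28% to 3.04% in the others, and WT replicate 1 was the only library with a female pattern (31134 reads of Xist, at most 10 in the others). Reads outside genes made up 17.3% ± 0.291 of KO and 34.3% ± 3.59 of WT libraries (SD, n = 3 each), and the part of this difference in the results below was not tested. The 34 genes together took 15549 to 17551 reads in KO libraries and 2323 to 13594 in WT libraries, so WT replicate 3 carries the largest counting error.

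As a group, microglia genes stayed near the level of WT. Of the 33 tested, 2 were higher in KO, 0 were lower and 31 did not pass at a Benjamini-Hochberg adjusted p under 0.05 (quasi-likelihood test of edgeR, which gives every adjusted p below unless another tool is named). That is 6.06% of the tested members, where 16.7% of all tested genes passed. By direction, 6.43% of all genes were higher and 10.2% lower. At an unadjusted p under 0.05, 8 members were higher and 0 lower, where 14.7% and 17.8% of all genes were. DESeq2 and limma-voom each also called 2 higher and 0 lower. The median log2 fold change of the members was 0.05, against −0.01 over all tested genes, with 19 estimates above and 14 below 0 and a range from −0.25 (Lyz2) to 0.51 (Cx3cr1). In 25 of the 33 the 95% interval of the fold change lay wholly within 1.5 fold of no change, and in 32 within 2 fold.

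Summed over the tested members, the level was 403, 397 and 423 CPM in KO replicates 1 to 3 and 395, 372 and 360 CPM in WT replicates 1 to 3. Every KO library lay above every WT library, but KO replicate 2 and WT replicate 1 were close. Without the 2 genes that passed, the sums were 342, 331 and 358 CPM in KO and 345, 323 and 316 CPM in WT, and the groups overlapped. In bulk tissue, a different number of microglia and a different amount of RNA per cell cannot be told apart.

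**Figure D1:**
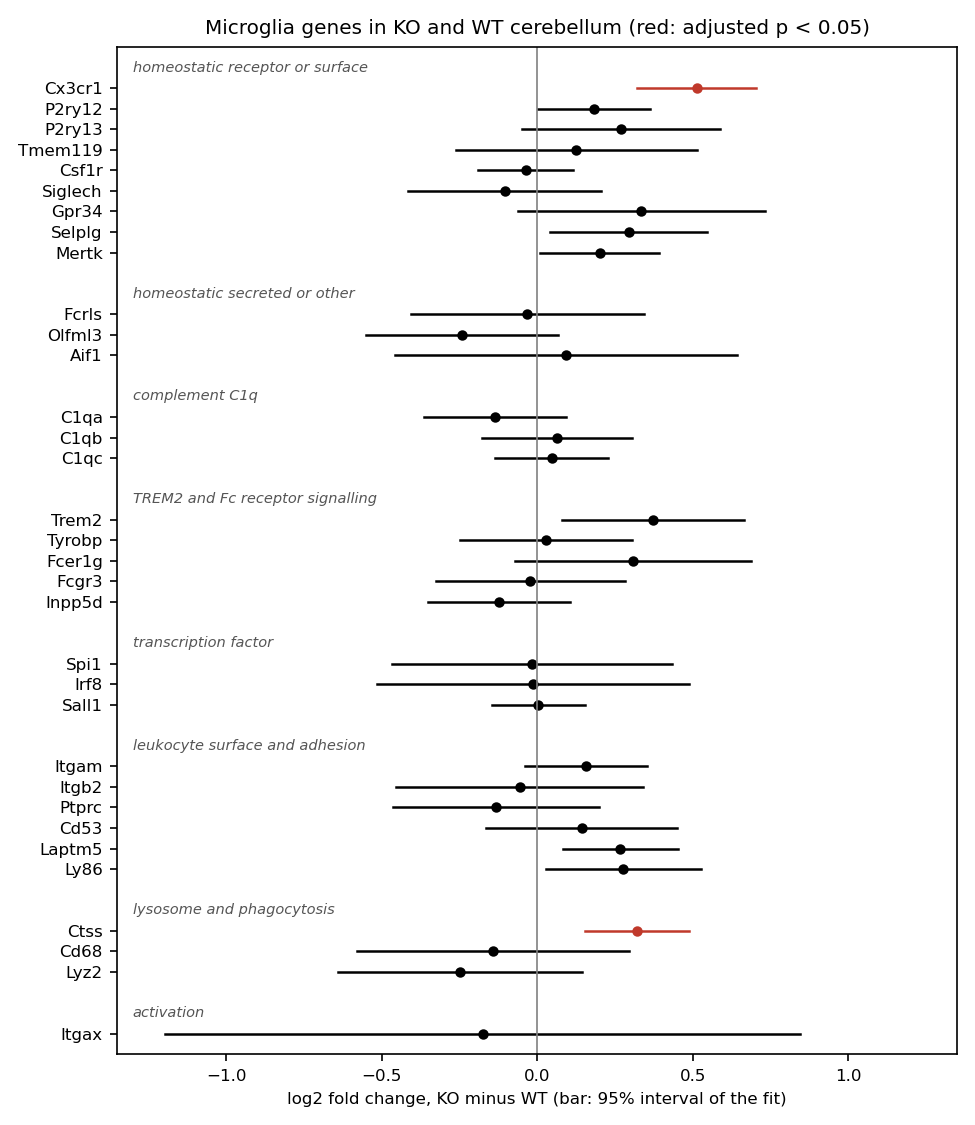
Log2 fold change of the 33 tested microglia genes (x axis, KO minus WT) by role, with points for the estimate and bars for the 95% interval of the edgeR fit. Cx3cr1 and Ctss, in red, are the members with an adjusted p under 0.05, and most other intervals span 0.

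The clearest difference was in Cx3cr1, the receptor through which microglia sense the neuronal chemokine fractalkine. The gene (chromosome 9, 119901616 to 120069879, GRCm38, protein-coding) had 1242, 1408 and 1356 reads in KO and 849, 783 and 131 reads in WT. Its level was 32.2, 35.5 and 32.7 CPM in KO, against 24.7, 24.2 and 20.3 CPM in WT. All 3 KO libraries were above all 3 WT libraries. The means were 33.5 ± 1.80 CPM in KO and 23.1 ± 2.40 CPM in WT (SD, n = 3 each). Cx3cr1 was thus 1.43 fold higher in KO, a log2 fold change of 0.51 (SE 0.09, 95% interval 0.32 to 0.70; adjusted p = 0.00362 in edgeR). It passed in every one of the 13 alternative settings, with log2 fold changes from 0.46 to 0.55. Set against the other 32 tested members of the same library, as the difference of its log2 CPM from their mean, it stood at 1.98, 2.16 and 1.92 in KO and at 1.59, 1.67 and 1.47 in WT. The ligand gene Cx3cl1, made by neurons, averaged 141 ± 8.93 CPM in KO and 121 ± 21.6 CPM in WT and did not pass (log2 0.21, 95% interval −0.04 to 0.47).

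The other gene that passed was Ctss, which encodes cathepsin S, a lysosomal and secreted protease that among other substrates cuts fractalkine from the neuronal membrane. The gene (chromosome 3, 95526786 to 95556403, protein-coding) stood at 28.9, 30.2 and 32.2 CPM in KO and 25.4, 23.9 and 23.4 CPM in WT. The groups did not overlap. It was 1.25 fold higher in KO (log2 0.32, SE 0.08, 95% interval 0.15 to 0.49; adjusted p = 0.0185 in edgeR). Unlike that of Cx3cr1, the call was lost in some alternatives, where the adjusted p was 0.0644 without KO replicate 2, 0.0913 without KO replicate 3 and 0.0755 without WT replicate 2.

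The 250 bases before the RefSeq start of a gene (GRCm38.p6) were read for the members found in the promoter table, 26 of 34. The purine-rich core GAGGAA, as found in binding sites of PU.1, the macrophage factor encoded by Spi1, was searched on both strands (TTCCTC on the other). It was present for 14 of the 26 members (53.8%) and for 25.9% of the 27025 genes of that table. Shown are the genes that passed, Cx3cr1 (chr9:120068297-120068546, minus strand) and Ctss (chr3:95526536-95526785, plus strand), and for comparison C1qb (chr4:136886201-136886450, minus strand) and C1qc (chr4:136892915-136893164, minus strand), which did not pass. Sequences run 5′ to 3′ on the gene's strand, with matches in capitals.
Cx3cr1: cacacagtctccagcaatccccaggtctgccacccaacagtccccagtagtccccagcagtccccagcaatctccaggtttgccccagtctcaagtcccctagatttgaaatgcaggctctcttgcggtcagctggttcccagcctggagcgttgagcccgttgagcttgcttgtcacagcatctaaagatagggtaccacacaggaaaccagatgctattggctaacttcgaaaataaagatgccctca
Ctss: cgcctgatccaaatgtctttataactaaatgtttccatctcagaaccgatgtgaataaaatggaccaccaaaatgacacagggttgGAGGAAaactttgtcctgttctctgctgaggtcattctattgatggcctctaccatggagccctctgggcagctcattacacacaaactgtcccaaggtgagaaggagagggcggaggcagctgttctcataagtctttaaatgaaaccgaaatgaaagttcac
C1qb: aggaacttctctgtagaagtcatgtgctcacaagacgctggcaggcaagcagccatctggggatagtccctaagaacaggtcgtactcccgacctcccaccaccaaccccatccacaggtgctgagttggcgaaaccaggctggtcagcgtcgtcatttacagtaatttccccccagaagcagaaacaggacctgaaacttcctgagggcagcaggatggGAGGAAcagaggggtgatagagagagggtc
C1qc: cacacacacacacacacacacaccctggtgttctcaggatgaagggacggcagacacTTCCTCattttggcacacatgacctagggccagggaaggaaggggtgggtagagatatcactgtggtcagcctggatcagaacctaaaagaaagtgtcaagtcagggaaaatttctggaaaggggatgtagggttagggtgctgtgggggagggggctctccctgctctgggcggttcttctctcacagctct
Ctss and C1qb each held 1 match in the forward direction, C1qc 1 in the reverse direction and Cx3cr1 none. The RefSeq starts of Cx3cr1 and C1qc lie inside the longer spans that GENCODE gives these genes. The Cx3cr1 window is wholly inside its span and the C1qc window in part.

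Other homeostatic receptors lay closer to WT. P2ry12, an ADP receptor that steers microglial processes, had 22.1, 24.4 and 23.8 CPM in KO and 21.4, 19.2 and 21.7 CPM in WT. All KO libraries were above all WT libraries, by a small margin, and the gene did not pass (log2 0.18, 95% interval 0.00126 to 0.36; adjusted p = 0.151 in edgeR). Tmem119, a membrane protein used as a marker of resident microglia, had 9.49, 10.1 and 11.7 CPM in KO and 11.2, 9.84 and 5.73 CPM in WT, with overlap and with the lowest value in the shallow WT replicate 3 (37 reads). Its log2 fold change was 0.12 with a wide interval, −0.26 to 0.51.

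Csf1r, the survival receptor, was the most abundant member in reads. It stood at 54.5, 52.5 and 56.9 CPM in KO and 59.7, 54.7 and 53.0 CPM in WT. The groups overlapped, and the interval of the log2 fold change (−0.04) ran from −0.19 to 0.12, so a change of 1.5 fold in either direction lay outside it. Its ligand genes did not pass either: Csf1 averaged 30.9 ± 0.827 CPM in KO and 32.2 ± 0.635 CPM in WT, and Il34 6.94 ± 0.789 CPM in KO and 8.46 ± 1.44 CPM in WT (SD, n = 3 each).

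The remaining surface genes of the homeostatic set were the purine receptor P2ry13 (log2 0.27), the lysophosphatidylserine receptor Gpr34 (0.34), the selectin ligand Selplg (0.29), the engulfment kinase Mertk (0.20), which astrocytes also make, and the lectin Siglech (−0.10). None of the 5 passed, with adjusted p from 0.104 (Selplg) to 0.646 (Siglech) in edgeR. Selplg and Mertk had all KO libraries above all WT libraries, and the others overlapped. Fcrls, an Fc receptor-like gene (−0.03), Olfml3, a secreted glycoprotein gene (−0.24), and Aif1, which encodes the stain target IBA1 (0.09), overlapped between the groups as well.

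**Figure D2:**
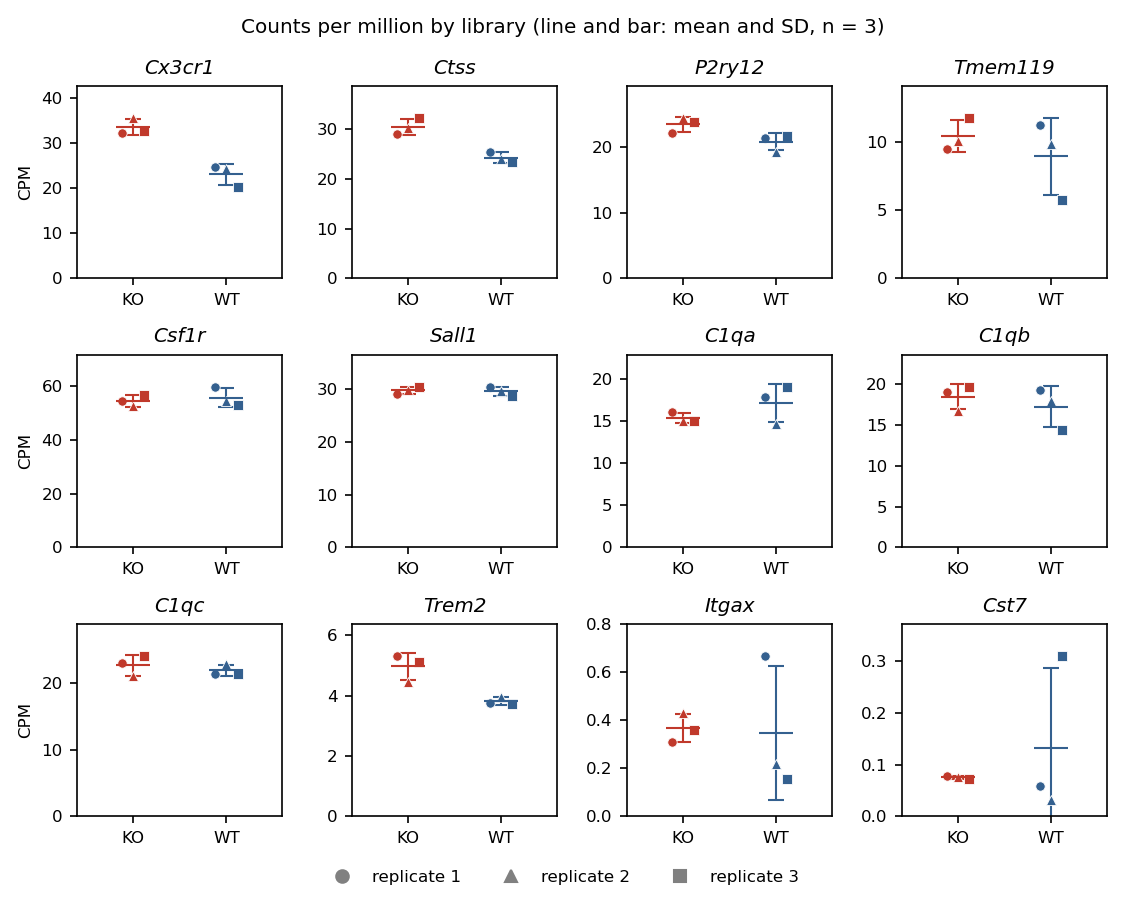
Level in CPM (y axis) of 12 microglia genes in the 3 KO and 3 WT libraries, with symbols for the replicates and a line and bar for the mean and SD. Cx3cr1, Ctss, P2ry12 and Trem2 separate the groups, whereas Csf1r, Sall1 and the C1q genes overlap. Each panel has its own y axis, and the highest library is at 0.668 CPM for Itgax and 0.310 CPM for Cst7.

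The C1q genes, whose 3 chains form the first component of the classical complement pathway and come in brain mainly from microglia, had overlapping levels in the 2 genotypes. They are neighbours on chromosome 4, C1qb at 136880129 to 136886187, C1qc at 136889804 to 136893065 and C1qa at 136895917 to 136898803. C1qa had 16.1, 15.0 and 15.0 CPM in KO and 17.8, 14.7 and 19.1 CPM in WT. C1qb had 19.1, 16.7 and 19.6 CPM in KO and 19.3, 17.9 and 14.4 CPM in WT. C1qc had 23.0, 21.0 and 24.0 CPM in KO and 21.4, 22.9 and 21.4 CPM in WT. In each of the 3 the groups overlapped. Their log2 fold changes of −0.14, 0.06 and 0.05 had intervals from −0.36 to 0.09, −0.18 to 0.30 and −0.13 to 0.23, all within 1.5 fold.

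A list of 20 other complement genes was counted in the same way. Of 18 tested, 2 were higher, 8 lower and 8 did not pass (median log2 fold change −0.38), where 6.43% of all tested genes were higher and 10.2% lower. Among the lower ones were the synapse-associated sushi domain genes Csmd3 (−0.69, SE 0.08), Csmd2 (−0.43, SE 0.07) and Csmd1 (−0.43, SE 0.07), the regulators Serping1 (−0.61) and Cd46 (−1.40), and the components C4b (−0.51) and C1s1 (−1.23). C4b, the effector next in the cascade after C1q and its proteases, averaged 15.9 ± 1.23 CPM in KO and 22.2 ± 3.26 CPM in WT (SD, n = 3 each). The higher ones were Susd4 (0.35, SE 0.07), a complement inhibitor, and Cd59a (0.46, SE 0.11), which blocks the membrane attack complex. Adjusted p of the genes named ranged from 6.84e-04 (Csmd3) to 0.0209 (C1s1) in edgeR. The Csmd genes are mainly neuronal, and the others are not restricted to microglia. The complement receptors of microglia, C3ar1 (−0.15) and C5ar1 (−0.35), did not pass. Without WT replicate 3 or WT replicate 1 the counts were again 2 higher and 8 lower, and without KO replicate 1 or KO replicate 3 they were 1 and 5.

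In the TREM2 pathway, Trem2, a lipid-sensing receptor, came nearest to a call. It had 5.32, 4.47 and 5.13 CPM in KO and 3.78, 3.96 and 3.72 CPM in WT. All KO libraries were above all WT libraries. The log2 fold change of 0.37 (SE 0.13, 95% interval 0.08 to 0.66) did not pass (adjusted p = 0.0790 in edgeR). Its adaptor Tyrobp, also known as DAP12, was at 0.03 (95% interval −0.25 to 0.30) and overlapped. Fcer1g, the gamma chain shared by Fc receptors, was at 0.31, the IgG receptor gene Fcgr3 at −0.02, and Inpp5d, the phosphatase SHIP1 that restrains this pathway, at −0.12. Inpp5d was the only member with all KO libraries below all WT libraries (6.89 to 7.44 CPM in KO, 7.67 to 8.19 CPM in WT) and did not pass. Fcgr3 shares much of its sequence with a neighbouring Fc receptor gene, so its level is uncertain.

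The transcription factors of the set did not pass. Sall1, a zinc finger factor that keeps microglial identity, had 29.1, 29.8 and 30.3 CPM in KO and 30.4, 29.6 and 28.7 CPM in WT. The groups overlapped, and the interval of its log2 fold change (0.0033) ran from −0.15 to 0.15. Spi1 was at −0.02 and Irf8, a partner factor of PU.1, at −0.01, with wider intervals of −0.47 to 0.43 and −0.51 to 0.49 at 10 to 136 reads per library.

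Among leukocyte surface genes, Laptm5, a lysosomal membrane protein of blood and microglial cells, lay just outside the threshold. It had 20.0, 20.4 and 19.1 CPM in KO and 17.3, 16.6 and 14.9 CPM in WT. The groups did not overlap (log2 0.27, SE 0.08; adjusted p = 0.0519 in edgeR). It passed in 4 of the 13 alternatives. Ly86, a partner of a receptor related to the Toll-like receptors (0.28), and Itgam, the integrin chain CD11b (0.16), also had all KO libraries above all WT libraries without passing. The integrin partner Itgb2 (−0.06), the leukocyte phosphatase Ptprc (−0.13) and the tetraspanin Cd53 (0.14) overlapped. In all, 10 of 33 members had groups that did not overlap, 9 with KO above WT and 1 with KO below, where 39.4% of all tested genes did, 18.9% above and 20.5% below.

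Of the lysosomal genes other than Ctss, Cd68, a marker of phagocytic activity, was at −0.14, with 3.58, 3.21 and 3.50 CPM in KO and 3.54, 3.16 and 5.89 CPM in WT; the high value was that of WT replicate 3, with 38 reads. Lyz2, lysozyme, was at −0.25 and overlapped. Lyz2 has a near copy in the mouse genome, Lyz1, and reads they share would be dropped, so its level is uncertain.

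The activation genes were close to absent in both genotypes. Itgax, the integrin chain CD11c, had 12, 17 and 15 reads in KO and 23, 7 and 1 reads in WT. Its levels of 0.311, 0.429 and 0.362 CPM in KO and 0.668, 0.217 and 0.155 CPM in WT overlapped, and the interval of its log2 fold change (−0.18) ran from −1.20 to 0.84. Cst7, cystatin F, had 3, 3 and 3 reads in KO and 2, 1 and 2 reads in WT. It was the member removed by the filter, and no fold is given at these counts. The value of 3 reads corresponds to 0.0723 to 0.0778 CPM in KO and 0.0871 to 0.465 CPM in WT libraries.

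Other genes of the damage-associated programme, which many cell types share, were 3 higher, 0 lower and 14 not passed of 17 tested (median 0.11). The share that was higher, 17.6%, compares with 6.43% of all tested genes that were higher (10.2% were lower). In 7 of the 17 all KO libraries were above all WT libraries and in 0 below, where 18.9% and 20.5% of all tested genes were. At an unadjusted p under 0.05, 5 were higher and 0 lower, where 14.7% and 17.8% of all tested genes were. DESeq2 and limma-voom each called 3 higher and 0 lower. Lpl, lipoprotein lipase (0.69, SE 0.15), and the cathepsins Ctsl (0.27, SE 0.07) and Ctsb (0.29, SE 0.09) were higher. Ctsb averaged 462 ± 1.42 CPM in KO and 376 ± 47.8 CPM in WT (SD, n = 3 each). Without KO replicate 1, KO replicate 2 or WT replicate 2 none of the 17 passed in edgeR, without KO replicate 3 the count was 1, and without WT replicate 3 it was 6. More restricted genes of this programme did not pass: Clec7a was at 0.26 and Gpnmb at −0.25. Among 18 tested inflammatory signalling genes, 0 passed in edgeR, DESeq2 (no adjusted p for 3) or limma-voom, with 0 higher and 1 lower at an unadjusted p under 0.05. The cytokine genes Il1b and Tnf had at most 7 reads in any library.

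**Figure D3:**
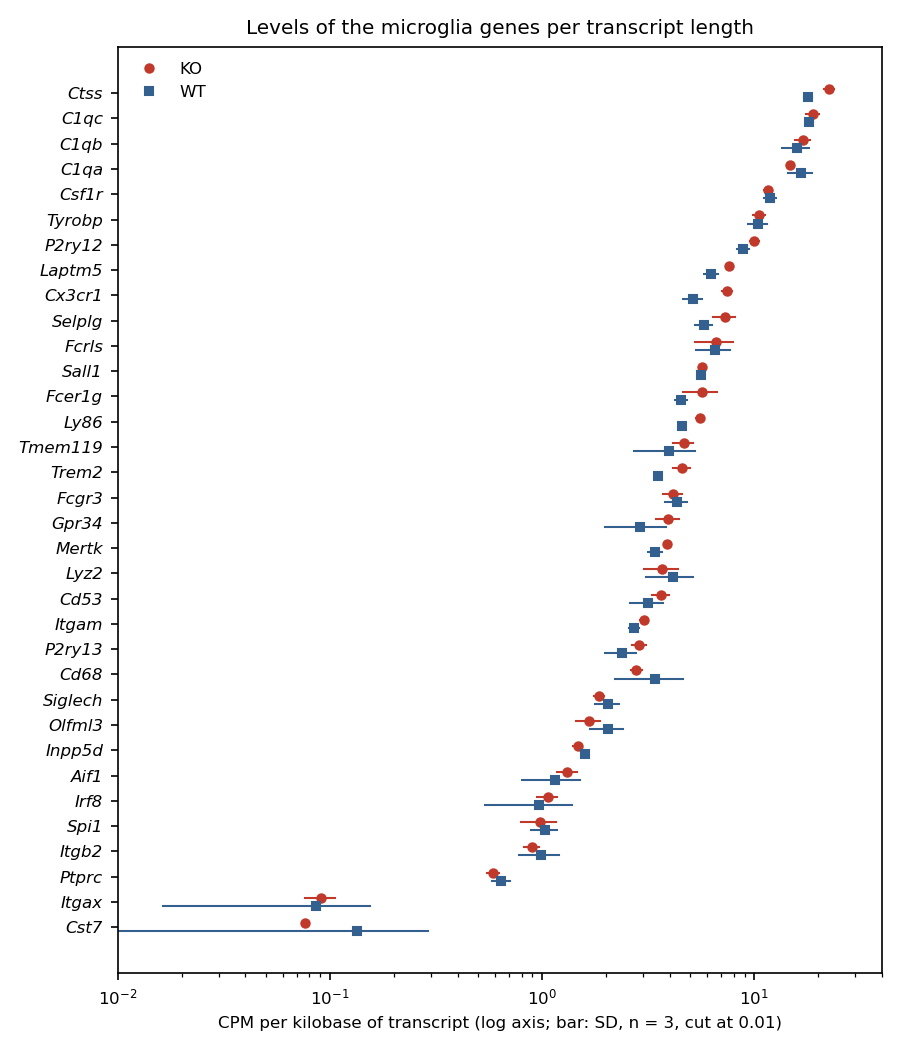
Level of the 34 microglia genes in CPM per kilobase of the longest coding transcript (log x axis), as means (points) and SD (bars, n = 3) in KO and WT. Ctss and the C1q genes lead in both genotypes, and Itgax and Cst7 stand apart at the low end.

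Per kilobase of the longest coding transcript, which allows genes to be compared, Ctss led with 22.5 ± 1.22 CPM in KO and was level with the C1q genes in WT at 17.9 ± 0.782 CPM (SD, n = 3 each). C1qc, C1qb and C1qa followed with 18.8 ± 1.29, 17.0 ± 1.42 and 14.8 ± 0.597 CPM in KO and 18.2 ± 0.728, 15.8 ± 2.32 and 16.5 ± 2.16 CPM in WT. The SD ranges of C1qc and C1qb overlapped in both genotypes, and those of C1qb and C1qa in WT but not in KO. Csf1r (11.6 ± 0.468 in KO, 11.9 ± 0.741 in WT) and Tyrobp (10.6 ± 0.676 in KO, 10.4 ± 1.10 in WT) came next and overlapped in their spread. Cx3cr1 stood at 7.45 ± 0.400 CPM in KO and 5.13 ± 0.534 CPM in WT, in the upper middle of the order. Spi1, Irf8 and Itgb2 were near 1, at 0.899 to 1.07 in KO and 0.963 to 1.03 in WT.

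A second list of 35 microglia genes, none of them among the 34, had 0 of 34 tested genes past the threshold in edgeR, DESeq2 or limma-voom (median −0.01). Without WT replicate 3, 1 passed. At an unadjusted p under 0.05, 5 were higher and 1 lower, where 14.7% and 17.8% of all tested genes were. Syk, a kinase downstream of TREM2, averaged 2.77 ± 0.0226 CPM in KO and 3.57 ± 0.276 CPM in WT (−0.33, adjusted p = 0.128 in edgeR) and did not pass. Of 18 ligands and partners of microglial receptors, 1 passed: Gas6, a ligand of Mertk and its relatives, was higher with 120 ± 0.982 CPM in KO and 97.8 ± 3.75 CPM in WT (log2 0.29, SE 0.06; adjusted p = 0.00980). The call of Gas6 was lost without KO replicate 3, where the list had 0; without WT replicate 1 it had 2 higher, and without WT replicate 3 it had 3 higher and 1 lower. Clu (0.17) and Axl (0.20), the next by p, did not pass.

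Markers of other cells that the tissue holds were counted in the same way. Border macrophages, the relatives of microglia at vessels and meninges, had 2 of 12 genes lower, 0 higher and 10 not passed (median −0.22). That is 16.7% of the list, all lower, where 10.2% of all tested genes were lower and 6.43% higher. The scavenger receptor gene Stab1 had 11.6, 10.9 and 11.5 CPM in KO and 18.4, 16.9 and 19.1 CPM in WT (−0.67, SE 0.09), and the mannose receptor gene Mrc1 8.01, 7.93 and 8.24 CPM in KO and 11.5, 9.19 and 13.2 CPM in WT (−0.44, SE 0.13). The groups did not overlap in either gene. The third gene by p, Cd163, was at −0.52 and did not pass. The summed level of the list was 30.6 to 31.7 CPM in KO and 39.0 to 47.0 CPM in WT. The count of lower genes was 1 without WT replicate 1 or without any 1 KO library.

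Blood vessel genes were lower in 15 of 21 and higher in 0 (median −0.48; 333 to 345 CPM in KO, 439 to 472 CPM in WT), with the smallest p in Vtn (−0.67), Slco1a4 (−0.65) and Cldn5 (−0.65). Without KO replicate 2 or KO replicate 3 the lower ones were 9 and 7. Over all tested genes, 6.43% were higher and 10.2% lower, and 14.7% and 17.8% at an unadjusted p under 0.05. Meningeal fibroblast genes were lower in 6 of 12 (median −0.39), with the smallest p in Col3a1 (−0.95), Ogn (−0.50) and Col1a2 (−0.59), and in 3 without any 1 KO library or WT replicate 2. Astrocyte and Bergmann glia genes were higher in 3 of 12 (Slc1a2 at 0.38, Gjb6 at 0.25, Gja1 at 0.20), in 0 without KO replicate 1, KO replicate 3 or WT replicate 2, and in 1 without KO replicate 2 or WT replicate 1. Their summed level was 7203 to 7882 CPM in KO and 6511 to 6733 CPM in WT. Oligodendrocyte genes were abundant, with summed levels of 31235 to 33124 CPM in KO and 24485 to 28346 CPM in WT, which did not overlap. None of their 12 genes passed in edgeR, where 5 were higher and 0 lower at an unadjusted p under 0.05, while DESeq2 called 5 higher and limma-voom 3. The lineage factor gene Olig1 was at 0.28 and the myelin gene Mbp at 0.32, and neither passed in edgeR. Of 10 genes of cerebellar neurons, Calb1, a calcium buffer of Purkinje cells, was higher (0.36, SE 0.08) and Gabra6, which granule cells use in their GABA receptors, lower (−0.66, SE 0.14). At an unadjusted p under 0.05, 1 was higher and 5 lower, and DESeq2 called 1 higher and 3 lower. Choroid plexus genes had 0 of 10 past the threshold in edgeR, DESeq2 or limma-voom, with 0 higher and 2 lower at an unadjusted p under 0.05. The part of these cells in the values of the microglia genes was not tested.

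Genes of white blood cells were at low levels. The summed level of tested monocyte and neutrophil genes was 3.79 to 6.97 CPM in KO and 3.25 to 4.94 CPM in WT, and that of lymphocyte genes 0.830 to 1.37 CPM in KO and 0.930 to 1.30 CPM in WT. The groups overlapped in both. Red blood cell genes summed to 24.2 to 45.9 CPM in KO and 11.6 to 28.3 CPM in WT, also with overlap. Ccr2, the receptor of entering monocytes, had 18, 11 and 13 reads in KO and 18, 11 and 6 reads in WT. The 6 globin genes listed stood at 0 reads in every library, while Alas2, a haem synthesis enzyme of red cells, averaged 25.4 ± 6.66 CPM in KO and 14.8 ± 6.41 CPM in WT (SD, n = 3 each). The globin counts of 0 are therefore not read as absence of globin RNA, and their cause was not tested. No tested gene of these 3 lists passed in edgeR or limma-voom, or at an unadjusted p under 0.05 in edgeR. DESeq2 called none either, but gave no adjusted p for 3 of the 6 monocyte and neutrophil genes and for the 3 lymphocyte genes.

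**Figure D4:**
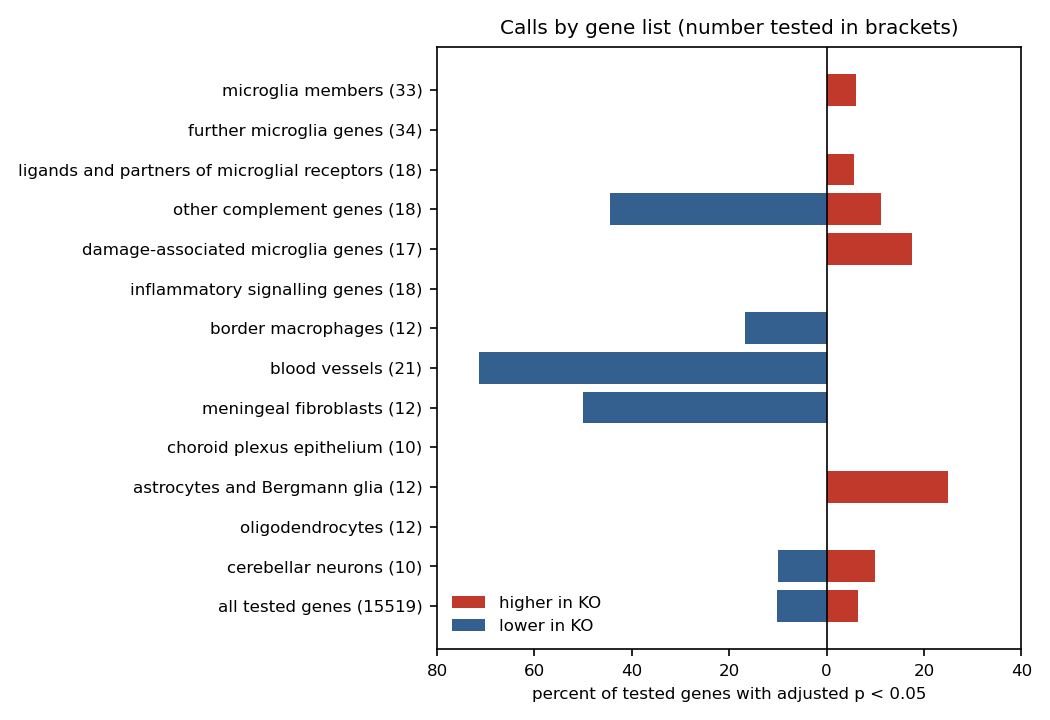
Percent of tested genes past an adjusted p under 0.05 (x axis), to the right for higher and to the left for lower in KO, for each gene list with at least 10 tested genes and for all genes. Microglia genes sit at 6.06%, all of it higher, beside 6.43% higher and 10.2% lower for all genes. Vessel, fibroblast and other complement genes extend to the lower side.

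Several members lie inside or beside other genes. P2ry12 and P2ry13 lie within Med12l on the opposite strand, and Gpr34 within Cask on the opposite strand. Csf1r shares 873 exon bases with the protein-coding gene Hmgxb3 on the opposite strand. From which gene the opposite-strand reads came was not tested. The counts used here are of the gene's own strand. On the strand opposite P2ry12 there were 11, 5 and 4 reads in KO and 33, 26 and 6 reads in WT, or 0.713 per 100 own-strand reads in KO and 4.34 in WT. For P2ry13 these shares were 3.46 in KO and 14.0 in WT, and for Gpr34 3.04 in KO and 14.2 in WT. Scaled to library size, the KO libraries were below the WT libraries in each of the 3, in the same direction as the reads outside genes. Of 13 members with at least 10 such reads, 5 had KO wholly below WT (also Csf1r and Cd68) and 0 wholly above, where 17% and 4.93% of 11805 genes did.

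Cst7 had more reads on the opposite strand than on its own, 7, 6 and 13 in KO and 10, 22 and 4 in WT. Counted without regard to strand it passed the filter, at a log2 fold change of −0.95 that did not pass the test (adjusted p = 0.136 in edgeR), with most of the reads counted there from the other strand. Itgam shares 3450 exon bases with the annotated gene model Gm49368 on the same strand, so its reads cannot be assigned with certainty. Irf8 lies within the model Gm20388 on the same strand but shares 0 exon bases with its exons.

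**Figure D5:**
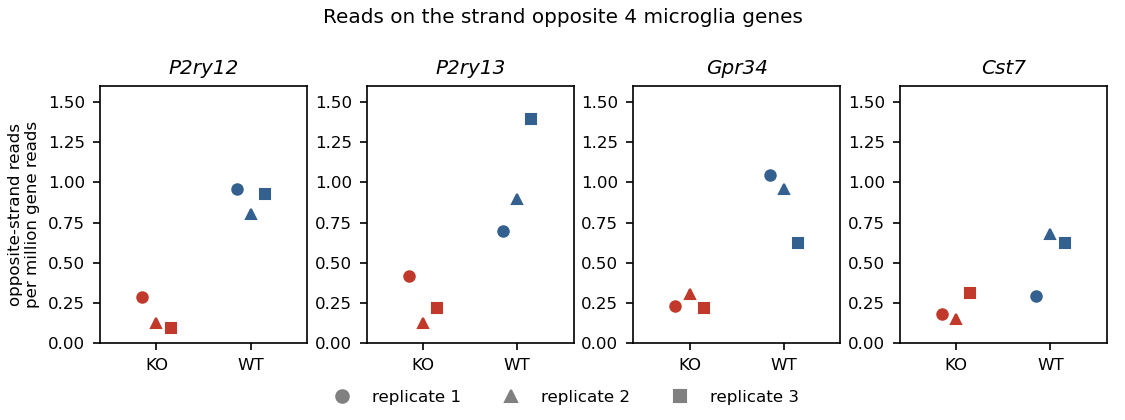
Reads on the strand opposite P2ry12, P2ry13, Gpr34 and Cst7 in CPM of the library (y axis) in the 3 KO and 3 WT libraries, with symbols for the replicates. KO libraries lie below WT libraries in the first 3 genes, and in Cst7 the groups overlap.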

How the data were processed

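RNA of 6 cerebellum libraries (3 KO, 3 WT) was analysed from gene counts. The authors deposited raw counts of reads per gene, without regard to strand and for each strand. Per the submitters' processing notes, Trimmomatic, STAR and mm10 were used. The sources used here give no version, annotation or strand setting. The column of the strand with more gene reads was used, and the lines of unassigned reads (outside genes, 17.3% of KO and 34.3% of WT reads) stayed out of library sizes.

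Genes passing edgeR's filterByExpr (15519 of 24411) were scaled by TMM and tested with edgeR 4.0.16 under R 4.3.3 (robust quasi-likelihood test), and p was adjusted by Benjamini-Hochberg across these genes. SE was back-calculated from the F statistic, and 95% intervals use it with the test's degrees of freedom. CPM use TMM-scaled library sizes. Levels relative to other members used log2(CPM + 0.5). DESeq2 1.42.0, limma 3.58.1 (voom) and other settings were alternatives. The procedures were checked on simulated counts, with the same variability for every gene and planted changes larger than that of Cx3cr1. Changes of the size of Cx3cr1 or Ctss were not covered by that check. GENCODE (GRCm38, equal to mm10) gave positions, overlaps and lengths, and RefSeq the promoters.

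Members and lists were chosen with earlier results of these data known. All 34 members are named. Each library is given for members past the threshold and for 11 chosen by name, Cx3cr1 among them. Cd68, Laptm5 and genes beyond the 3 with the smallest p of a list were chosen for display after their values were seen. CPM equal to 3 reads cover counting error only. Some genes of the lists other than the members are counted but not reported by name here.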

Additional observations from a re-analysis of the deposited data

How the results depend on the processing

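Cx3cr1 passed in all 13 alternatives (adjusted p 3.57e-05 to 0.0269 in edgeR, DESeq2 or limma-voom). The count of higher members was 2 or 3 with median-of-ratios scaling, without a filter, with DESeq2 or limma-voom, without regard to strand and without Rn45s, and 1 to 4 when leaving out a library each: 1 without KO replicate 2, KO replicate 3 or WT replicate 2, and 4 (with Mertk and Laptm5) without WT replicate 3. Lower members numbered 0 throughout. All genes past the threshold numbered 1041 to 3719 and the members' median was 0.025 to 0.15 when leaving out a library each. The replicate numbers of the titles did not pair the libraries: deviations of same-numbered libraries correlated at −0.18, −0.14 and −0.0997 across genes. With the replicate block, 1 member (Cx3cr1) and 1073 genes passed, and Ctss had adjusted p = 0.0841.

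Signs turned only in members that did not pass. Irf8 was at 0.044 with DESeq2, 0.0016 with limma-voom, 7.5e-04 without regard to strand and 0.11 with the replicate block. With limma-voom Sall1 was at −0.0035 and Itgax at 0.068, and without regard to strand Fcgr3 was at 0.0016 and Spi1 at 0.0054. Leaving out a library each gave ranges of −0.13 to 0.062 for Fcgr3, −0.13 to 0.13 for Fcrls, −0.17 to 0.11 for Spi1, −0.14 to 0.33 for Irf8, −0.078 to 0.13 for Tyrobp, −0.0095 to 0.024 for Sall1, −0.064 to 0.018 for Csf1r, −0.082 to 0.40 for Aif1, −0.23 to 0.025 for Itgb2, −0.61 to 0.83 for Itgax, −0.0082 to 0.29 for Tmem119, −0.0086 to 0.15 for C1qb and −0.31 to 0.035 for Cd68. The cause was not tested. Counts of other lists with a library left out were added after seeing the data. The depth of WT replicate 3 limits genes with few reads, such as Itgax, Irf8 and Spi1.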
